A study of Mus musculus with 6 samples.

Results

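A set of 8 genes of lymphoid chemokine signalling and lymphocyte homing were followed in macrophages sorted from the mouse omentum and mesentery: the ligands Cxcl13, Cxcl12 and Ccl19, their receptors Cxcr5, Cxcr4 and Ccr7, and the lymphotoxin subunits Ltb and Lta. They were chosen by symbol as organisers of the lymphoid clusters of the omentum, and 8 of 8 were found among the 23946 genes of the table. Of these, 7 had at least 1 FPKM (fragments per kilobase of transcript, scaled to library size) in at least 1 library, as did 13064 genes in all, and Ccl19 did not. The libraries came from female C57BL/6 mice 6 to 8 weeks old, either naive or injected intraperitoneally with ID8 cells, a mouse ovarian carcinoma line of the same background, and killed 24 h or 7 d later. Omental (OM) and mesenteric (MY) tissue of 9 mice was handled in groups of 3 mice and dissociated, and CD45+CD11b+F4/80+ cells were flow sorted from it. The omenta of a group of 3 were combined in a tube and counted as a single sample. Whether both tissues of a time point came from the same mice is not stated. The 6 conditions are represented by a single library each. No value therefore has a replicate error, no test between conditions was made and each difference describes 2 libraries.

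CXCL13 draws B cells through CXCR5 and is known as the chemokine that gathers B cells into the milky spots, the lymphoid clusters of the omentum. CXCL12 retains and guides many leukocytes through CXCR4, and CCL19 guides naive T cells and mature dendritic cells through CCR7. Lymphotoxin beta anchors lymphotoxin alpha at the surface of lymphocytes, and the heterotrimer signals through LTBR on stromal cells, a known step in the induction of lymphoid chemokines.

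In the NCBIM37 assembly, also called mm9, Cxcl13 lies on chromosome 5 (96385945 to 96390086, plus strand, 4 exons) and Cxcr5 on chromosome 9 (44319871 to 44334504, minus strand, 2 exons). Cxcl12 lies on chromosome 6 (117118553 to 117131385, plus strand, 4 exons) and Cxcr4 on chromosome 1 (130484776 to 130488870, minus strand, 2 exons). Ccr7 lies on chromosome 11 (99005510 to 99016391, minus strand, 3 exons). Ltb (35331384 to 35333265, plus strand, 3 exons) and Lta (35340110 to 35342296, minus strand, 4 exons) share 10913 bases of chromosome 17 with Tnf, which lies between them. The GENCODE M1 annotation gave none of these 7 genes an overlapping gene.

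The promoters of Ltb and Lta are shown because these neighbouring genes fell together in the omentum. That of Cxcl13 is shown because it is the chemokine ligand of the set with the highest omental level. Each runs from 250 bases before to 50 bases after the start site in RefSeq on GRCm38.p6, a later build than that of the expression table, and capitals mark motif matches.
Cxcl13, chr5:95956689-95956988, plus strand: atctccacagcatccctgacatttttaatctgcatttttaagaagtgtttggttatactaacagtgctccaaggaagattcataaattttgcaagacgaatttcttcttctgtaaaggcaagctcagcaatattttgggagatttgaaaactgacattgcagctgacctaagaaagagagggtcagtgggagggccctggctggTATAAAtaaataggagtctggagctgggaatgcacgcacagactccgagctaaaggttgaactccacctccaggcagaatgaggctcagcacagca
Ltb, chr17:35194257-35194556, plus strand: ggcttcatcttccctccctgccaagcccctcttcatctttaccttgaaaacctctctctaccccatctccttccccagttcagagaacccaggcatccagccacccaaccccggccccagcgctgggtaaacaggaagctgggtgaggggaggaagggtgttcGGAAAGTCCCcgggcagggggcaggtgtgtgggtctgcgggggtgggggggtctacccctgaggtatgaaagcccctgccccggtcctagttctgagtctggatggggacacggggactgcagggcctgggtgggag
Lta, chr17:35205302-35205601, minus strand: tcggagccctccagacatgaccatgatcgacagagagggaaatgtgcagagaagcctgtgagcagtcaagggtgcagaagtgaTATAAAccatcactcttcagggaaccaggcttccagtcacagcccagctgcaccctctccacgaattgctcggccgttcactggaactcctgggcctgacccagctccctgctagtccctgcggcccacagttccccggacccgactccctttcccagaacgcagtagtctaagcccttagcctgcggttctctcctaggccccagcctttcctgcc
Motifs were sought on both strands: TATAAA, the kappaB consensus bound by NF-kappaB factors, and AGGAAGT, a core of ETS-family sites. Positions count from the start site, negative before it. TATAAA was found at -46 in Cxcl13, at -167 in Lta, and in Cxcr4 at -30 and, on the other strand and overlapping it, at -32. The kappaB consensus was found once, in Ltb, at -87. No AGGAAGT was found in the 6 promoters the table held (those of Cxcr5 and Ccr7 were not in it). Among 32851 promoters of this length, 13.6% held TATAAA, 8.46% the kappaB consensus and 9.35% AGGAAGT. A match is a description of the letters only.

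The macrophage identity of the libraries was checked first. All 10 macrophage markers examined, Csf1r, Cd68 and C1qa among them, reached 1 FPKM in some library. Their summed level was 7343 to 29572 FPKM in the omentum and 3269 to 4969 in the mesentery. Most of each sum was Lyz2, at 6791 to 24780 FPKM in the omentum and 2571 to 3578 in the mesentery. Genes of lymphocytes were abundant as well. The 9 B cell markers summed to 1002 to 4387 FPKM in the omentum and 599 to 1733 in the mesentery, and the 8 T cell markers to 26.8 to 114 and 499.9 to 1044. None of the genes of these 3 lists was at 0 in any library. Neutrophil genes were abundant too, with 7 markers summing to 6863 to 17193 FPKM in the omentum and 241 to 771 in the mesentery. In OM 7 d that sum, 17193 FPKM, was above the macrophage sum of 7343. The OM 24 h library stood apart, with the highest macrophage sum, the lowest T cell sum, and the antigen presentation gene Cd74 listed at 0 although it exceeded 100 FPKM in the other 5 libraries. In sorted bulk samples, fewer cells of a type and less RNA per cell cannot be told apart.

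Cxcl13 was expressed in both tissues and higher in the omental libraries. Its level was 107 FPKM in OM naive, 119.8 in OM 24 h and 92.8 in OM 7 d, against 12.6, 31.6 and 12.9 in MY naive, MY 24 h and MY 7 d. The omental and mesenteric ranges did not overlap, and within the omentum the 3 libraries lay within 1.29-fold of each other. On the log2(FPKM + 1) scale used for all differences below, the omentum exceeded the mesentery by 2.98 in naive mice, 1.89 at 24 h and 2.76 at 7 d. The smaller value at 24 h went with a rise of 1.26 in the mesentery, from 12.6 to 31.6 FPKM, which at 7 d stood at 12.9 again. Among expressed genes, Cxcl13 held percentile 92.4 to 92.9 in the omental libraries and 56.2 to 76.4 in the mesenteric ones.

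Cxcr5, the CXCL13 receptor carried by B cells and follicular helper T cells, followed another course. Its level was 122 FPKM in OM naive, 18.3 in OM 24 h and 80.5 in OM 7 d. In the mesentery it was 24.2 in naive mice, 14.1 at 24 h and 52.9 at 7 d. The ranges of the tissues overlapped, since OM 24 h lay below MY naive and MY 7 d. In naive mice the omentum was higher by 2.29, and the difference was 0.36 at 24 h and 0.60 at 7 d. Cxcr5 fell by 2.67 between OM naive and OM 24 h and rose by 1.10 between MY naive and MY 7 d, the latter under 2-fold (0.99) with a pseudocount of 5. The FPKM of Cxcl13 over that of Cxcr5 was therefore 0.874 in OM naive, 6.54 in OM 24 h and 1.15 in OM 7 d, and 0.521, 2.25 and 0.243 in the mesentery, with the highest ratio at 24 h in both tissues.

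**Figure D1:**
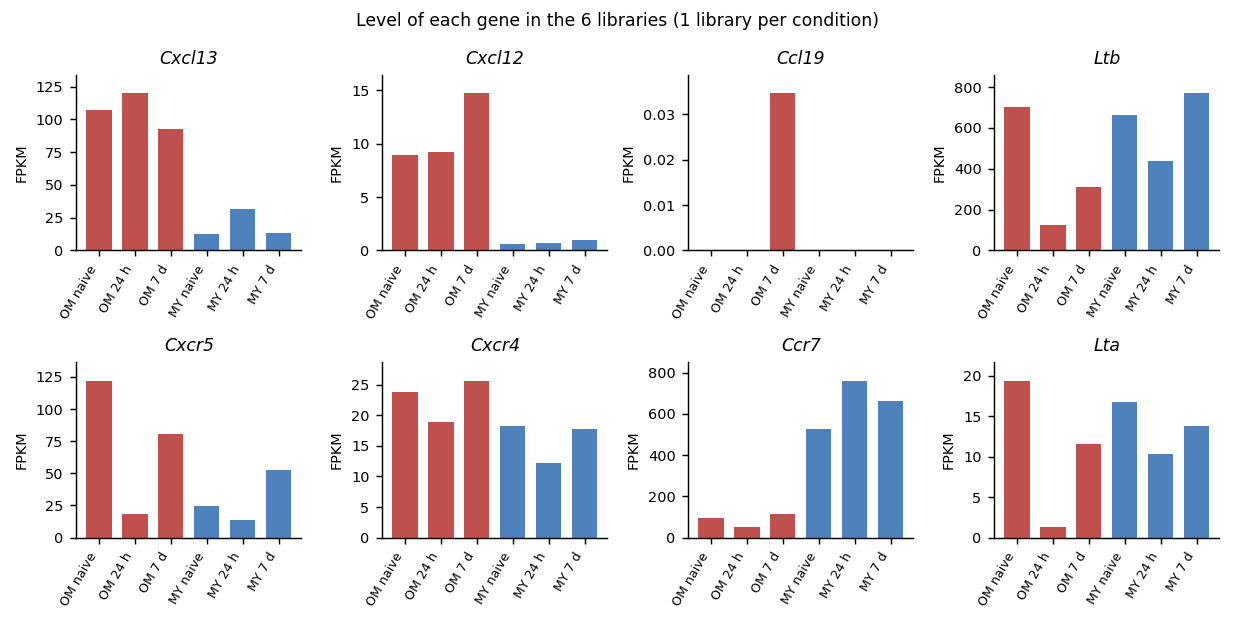
Level in FPKM (vertical axes, linear, each from 0) of the 8 genes in the 6 libraries, with omental libraries (OM) in red and mesenteric libraries (MY) in blue and 1 library per bar. Cxcl13 and Cxcl12 stand higher in all 3 omental libraries, Ccr7 in all 3 mesenteric libraries, and Cxcr5, Ltb and Lta are lowest among the omental libraries at 24 h.

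Cxcl12 was expressed in the omental libraries and stayed under 1 FPKM in the mesenteric ones. It measured 8.91, 9.25 and 14.7 FPKM in OM naive, OM 24 h and OM 7 d, and 0.632, 0.672 and 0.976 in MY naive, MY 24 h and MY 7 d. The omental FPKM was 14.1 times the mesenteric one in naive mice, 13.8 times at 24 h and 15.1 times at 7 d, which are differences of 2.60, 2.62 and 2.99 on the log2 scale. No change after injection reached 2-fold in either tissue, the largest being 0.67 in OM 7 d against OM naive. Since the mesenteric values lie under 1 FPKM, the differences depended on the pseudocount and were 3.62, 3.60 and 3.78 with a pseudocount of 0.1 and 1.30, 1.33 and 1.72 with a pseudocount of 5.

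Cxcr4, the widely expressed receptor of CXCL12, varied least. It measured 23.8, 19.0 and 25.6 FPKM in OM naive, OM 24 h and OM 7 d, and 18.3, 12.2 and 17.8 in MY naive, MY 24 h and MY 7 d. Its lowest omental value was above its highest mesenteric value, but only by 18.96 against 18.31 FPKM, and none of its differences between tissues (0.36 in naive mice, 0.60 at 24 h and 0.50 at 7 d) reached 2-fold. All 3 omental libraries thus had 1.74 to 2.68 FPKM of Cxcr4 for each FPKM of Cxcl12, and the mesenteric libraries 18.2 to 29.0.

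Ccl19, the CCR7 ligand of lymphoid stroma, was listed at 0 in 5 libraries and at 0.0346 FPKM in OM 7 d. It lies on chromosome 4 (42768057 to 42770109, minus strand, 4 exons) and overlaps 4930578G10Rik on the opposite strand. The other mouse ligands of CCR7, encoded by Ccl21a, Ccl21b and Ccl21c, were listed at 0 in all 6 libraries. Of 27 windows of 75 bases taken every 25 bases along the Ccl19 transcript of 745 bases, 19 occurred in the genome, each at 2 to 12 places, and 0 occurred at Ccl19 alone. The other 8 had no exact genomic match. A listed 0 for this gene may therefore be a failed assignment, and it was not read as absence. No such check was made for Ccl21a, Ccl21b and Ccl21c, and their listed 0 was not read as absence either.

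Ccr7 showed the reverse of Cxcl13 between the tissues. It measured 526 FPKM in MY naive, 761 in MY 24 h and 661 in MY 7 d, and 93.8 in OM naive, 49.2 in OM 24 h and 116 in OM 7 d. The ranges did not overlap. The mesentery exceeded the omentum 5.61 times in naive mice, 15.5 times at 24 h and 5.71 times at 7 d in FPKM, or by -2.48, -3.92 and -2.50 as omental minus mesenteric log2 values. In the mesenteric libraries Ccr7 was at percentile 99.2 to 99.5 of expressed genes, and in the omental libraries at 83.2 to 94.0. Changes against the naive library were under 2-fold in both tissues, at -0.92 for OM 24 h against 0.53 for MY 24 h, although the former was -1.12, past 2-fold, on rescaling to a sum of 1000000 per library. Ccr7 then rose by 1.22 from OM 24 h to OM 7 d.

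Ltb was the most abundant of the 8 genes in OM naive, OM 24 h, OM 7 d, MY naive and MY 7 d, and second to Ccr7 in MY 24 h. It measured 702 FPKM in OM naive, 124 in OM 24 h and 309 in OM 7 d, against 664, 436 and 769.7 in MY naive, MY 24 h and MY 7 d. The naive libraries differed by 0.08, and after injection the omentum stood below the mesentery by -1.81 at 24 h and -1.31 at 7 d. Within the omentum Ltb fell by 2.50 at 24 h and by 1.18 at 7 d against OM naive. The mesenteric values at 24 h and 7 d differed from MY naive by -0.61 and 0.21, both under 2-fold.

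Lta had the same order in the omentum at a lower level. It measured 19.4 FPKM in OM naive, 1.35 in OM 24 h and 11.6 in OM 7 d, against 16.8, 10.4 and 13.8 in the mesentery. It fell by 3.12 at 24 h in the omentum (14.3-fold in FPKM), and at 7 d its difference from OM naive was -0.69. With a pseudocount of 0.1 Lta fell by 3.75 at 24 h, and with 5 in its place it fell by 1.94. At 24 h it stood below the mesentery by -2.27 (-1.27 with a pseudocount of 5), while the differences in naive mice and at 7 d were 0.19 and -0.23. The FPKM of Ltb was 26.7 to 91.6 times that of Lta in the omentum and 39.5 to 55.7 times in the mesentery, highest in OM 24 h, where Lta was close to the threshold of expression. Tnf, between them on the chromosome, measured 11.1, 27.1 and 15.0 FPKM in OM naive, OM 24 h and OM 7 d and rose by 1.21 at 24 h. Ltb over Tnf went from 63.1 in OM naive to 4.57 in OM 24 h and 20.5 in OM 7 d.

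**Figure D2:**
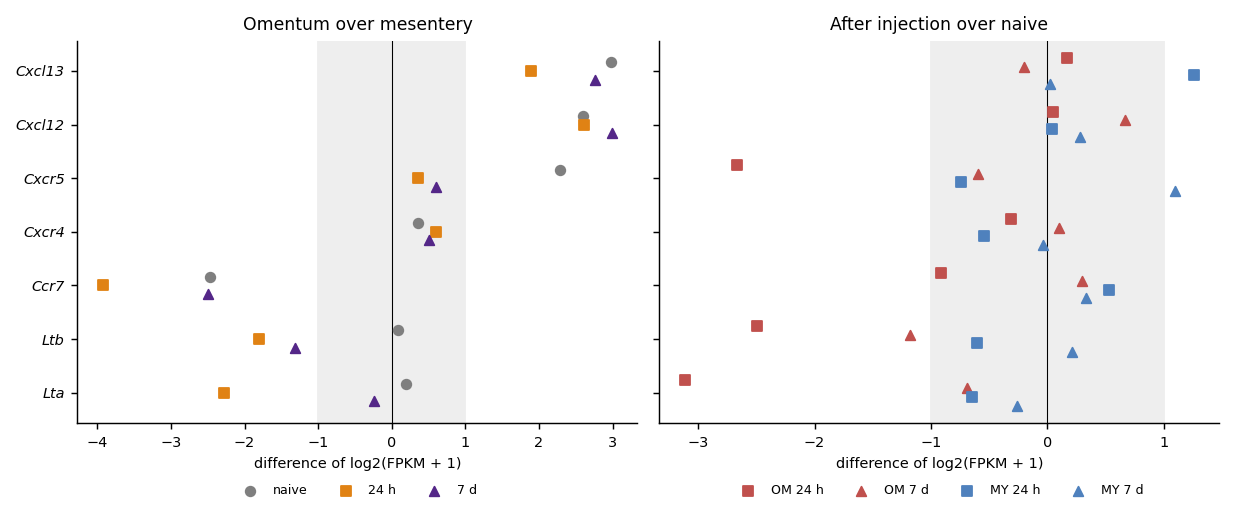
Difference of log2(FPKM + 1) for the 7 expressed genes, between omentum and mesentery at each time (left) and between injected and naive libraries of each tissue (right), 1 point per pair of libraries, with the shaded band marking under 2-fold. Ccr7 lies left of the band at all 3 times on the left, Cxcl13 and Cxcl12 right of it, and OM 24 h lies left of the band for Cxcr5, Ltb and Lta on the right.

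Counted over the 7 expressed members at a threshold of 2-fold, 3 were higher and 1 lower in OM naive than in MY naive (8.18% and 8.05% of all expressed genes). At 24 h, 2 were higher and 3 lower in the omentum (13.9% and 10.2% of all genes), and at 7 d 2 were higher and 2 lower (14.1% and 4.99%). Across the times, 3 members had all omental libraries above all mesenteric ones (16.7% of all genes) and 1 had them all below (17.7%). On rescaling to a sum of 1000000 per library, 2 members stayed above and Cxcr4 did not, and without the 24 h libraries 4 did, Cxcr5 included. Cxcl13 and Cxcl12 were thus higher and Ccr7 lower at each time by over 2-fold, and Cxcr5 was higher in naive mice alone. The median difference of the 7 members was 0.36 in naive mice, 0.36 at 24 h and 0.50 at 7 d, beside 0.01, 0.00 and -0.01 over all genes, a summary of opposite movements.

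After injection, 3 members fell and 0 rose in OM 24 h against OM naive (6.45% of all genes fell and 11.9% rose), and 4 fell, Ccr7 included, on rescaling to a sum of 1000000 per library. In OM 7 d, 1 fell and 0 rose (1.96% and 11.0%). From OM 24 h to OM 7 d, 4 rose (Cxcr5, Ccr7, Ltb and Lta) and 0 fell (7.03% of all genes rose and 4.52% fell). In the mesentery, 1 rose and 0 fell at 24 h (2.80% of all genes rose and 1.52% fell), namely Cxcl13. At 7 d 1 rose and 0 fell (0.498% and 2.29%), namely Cxcr5. From MY 24 h to MY 7 d, Cxcr5 rose by 1.84 and Cxcl13 fell by 1.23 (1.84% of all genes rose and 3.54% fell). The median of the 7 members was -0.92 in OM 24 h against OM naive and -0.55 in MY 24 h against MY naive, with 0.00 over all genes in both. The comparisons of a tissue share libraries with each other, and their values are given side by side only.

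Markers of other cell types moved with several of the members. The B cell list (Cd79a, Cd79b, Ms4a1 and Pax5 among them) had 9 of 9 genes higher in OM naive than in MY naive and 9 of 9 lower in OM 24 h than in OM naive. Its sum went from 4387 FPKM in OM naive to 1002 in OM 24 h and 2727 in OM 7 d, and in the mesentery from 906 to 599 at 24 h and 1733 at 7 d. Cxcr5 kept the same order of libraries within each tissue. For each 100 FPKM of summed B cell markers, Cxcr5 measured 2.78, 1.83 and 2.95 FPKM in OM naive, OM 24 h and OM 7 d and 2.68, 2.35 and 3.05 in the mesentery. Cxcr5 itself spanned 8.68-fold over the 6 libraries, and this ratio spanned 1.67-fold. The part of B cell RNA in the Cxcr5 values was not tested.

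Ccr7 was higher in the mesentery together with a list of migratory dendritic cell genes (Fscn1, Ccl22, Cacnb3, Socs2, Il4i1, Cd83 and Tmem123) and the T cell list. Of the former, 5 of 7 were lower in OM naive than in MY naive and 7 of 7 in OM 24 h than in MY 24 h. Their sum was 433 to 799 FPKM in the omentum and 2046 to 2963 in the mesentery, highest in MY 24 h as for Ccr7. The highest gene of this list, Tmem123, is not restricted to dendritic cells, while Fscn1, the bundling protein of mature dendritic cells, measured 43.0, 22.4 and 31.5 FPKM in OM naive, OM 24 h and OM 7 d and 759, 399.9 and 280.4 in MY naive, MY 24 h and MY 7 d. All 8 T cell genes were lower in the omentum at each of the 3 times. Within the mesentery Ccr7 was highest at 24 h. The T cell sum ran opposite to it at 24 h, at 913 FPKM in naive mice, 499.9 at 24 h and 1044 at 7 d. Fscn1 too was lower in MY 24 h than in MY naive, while the other migratory dendritic cell genes were higher, all by under 2-fold. Tmem123 alone measured 1133 of the 2963 FPKM of that list in MY 24 h. Ccr7 spanned 15.5-fold, its ratio to the migratory dendritic cell sum 2.84-fold, to the T cell sum 3.19-fold and to the B cell sum 59.4-fold. Of the 13 cell type lists, the ratio spanned least, 1.98-fold, for innate lymphoid and lymphoid tissue inducer cells. That list summed to 7.62 to 19.4 FPKM in the omentum and 54.4 to 83.0 in the mesentery. The part of any of these cell types in the Ccr7 values was not tested.

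The lymphotoxin genes fell at 24 h together with markers of several lymphocytes. In OM 24 h against OM naive, 9 of 9 B cell genes, 6 of 8 T cell genes and 6 of 6 NK cell genes were lower by at least 2-fold, while 7 of 10 macrophage genes and 7 of 7 neutrophil genes were higher. The NK cell sum was 236 FPKM in OM naive, 6.71 in OM 24 h and 102 in OM 7 d. For each 100 FPKM of summed B cell markers, Ltb measured 16.0, 12.3 and 11.3 FPKM in OM naive, OM 24 h and OM 7 d but 73.3, 72.8 and 44.4 in the mesentery. Within the omentum that ratio therefore lay in a narrower range than Ltb, and between the tissues it differed. The T cell sum, by contrast, was higher in the mesentery, where Ltb per 100 FPKM of T cell markers was 72.7 to 87.2 against 273 to 617 in the omentum. The part of lymphocyte RNA in these values was not tested.

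Stromal genes, like Cxcl12 and Cxcl13, were higher in the omentum at each time, by at least 2-fold for 7 of 7 mesothelial genes and for 5 or 6 of 6 fibroblast genes. The fibroblast list (Col1a1, Col1a2, Col3a1, Dcn, Pdgfra and Lum) summed to 221 to 1190 FPKM in the omentum and 2.08 to 3.10 in the mesentery, with Pdgfra listed at 0 in MY 24 h. The mesothelial list (Msln, Upk3b, Wt1, Lrrn4, Krt19, Krt18 and Upk1b) summed to 79.5 to 899 FPKM and 0.707 to 1.04, with Wt1, Lrrn4 or Upk1b listed at 0 in each of the mesenteric libraries. The paper detected ID8 cells in omenta with a keratin stain that covers the product of Krt18. Krt18 measured 9.60 FPKM in OM naive, 145 in OM 24 h and 117 in OM 7 d. The part of injected ID8 cells in the sum of this list was not tested. The fibroblast sum and Cxcl12 were both highest in OM 7 d. The sum of the mesothelial list went from 79.5 FPKM in OM naive to 886 in OM 24 h, a step over which Cxcl13 differed by 0.17 and Cxcl12 by 0.05. Both chemokines were highest relative to fibroblast markers in the mesentery, where these markers were near 0, and Cxcl13 there still measured 12.6 to 31.6 FPKM. The macrophage sum, mostly Lyz2, went from 3553 in MY naive to 4969 in MY 24 h beside Cxcl13. In the omentum it went from 8007 to 29572 at 24 h, while Cxcl13 differed by 0.17. By gene, 5 of 10 macrophage markers were higher in MY 24 h than in MY naive by at least 2-fold and 0 lower. Lyz2 differed by 0.27 over that step. In OM 24 h, 7 of 10 were higher than in OM naive and 0 lower. Cxcl13 per 100 FPKM of macrophage markers was 1.33, 0.405 and 1.26 in OM naive, OM 24 h and OM 7 d. In the mesentery it was 0.356, 0.637 and 0.394. Because Lyz2 made up most of each sum, this ratio mainly follows Lyz2. Endothelial genes summed to 9.23 to 41.2 FPKM in the omentum and 36.0 to 47.1 in the mesentery, mostly Pecam1, which leukocytes also carry, with Tek and Cldn5 listed at 0 in OM 24 h. Fibroblasts, mesothelial cells and endothelial cells lack CD45, a sort marker, yet fibroblast and mesothelial genes were listed in the omental libraries at the levels above. Lymphocyte genes were listed as well, although the sort was for macrophages. The part of stromal cells or of injected ID8 cells in the chemokine values was not tested.

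**Figure D3:**
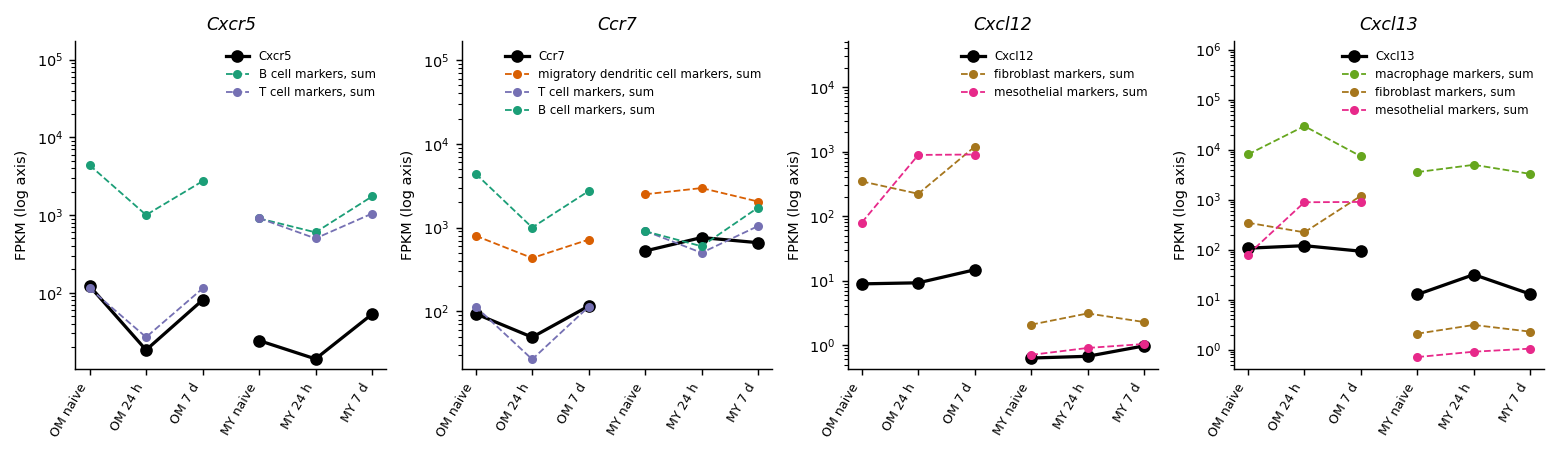
Level of Cxcr5, Ccr7, Cxcl12 and Cxcl13 (black) and summed level of marker lists (coloured, dashed) in FPKM on log axes in the 6 libraries, 1 library per point, with lines joining the libraries of a tissue. Cxcr5 runs parallel to the B cell sum in both tissues, Ccr7 and the migratory dendritic cell sum are both higher in the mesentery, and Cxcl13 stays level in the omentum while the mesothelial sum goes from 79.5 to 886.

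Genes with the most similar profile were sought for each member among all expressed genes, by the root mean square difference of centred log2 values over the 6 libraries. For Cxcr5 they were Tnfrsf13c (0.16), the BAFF receptor of B cells, Pou2af1 (0.18), a B cell coactivator, and Scd1 (0.19), a fatty acid desaturase. For Ltb they were Gimap1 (0.15), the transcription factor Ets1 (0.17) and Gimap6 (0.19), and for Lta Gimap4 (0.19), Gimap5 (0.21) and Gimap1 (0.27). The Gimap genes encode GTPases of lymphocytes, and Gimap4 measured 329, 41.0 and 172 FPKM in OM naive, OM 24 h and OM 7 d. For Cxcl13 they were Clec10a (0.24), a lectin of macrophages and dendritic cells, S100a6 (0.29) and Lifr (0.30). Clec10a measured 88.6, 136 and 61.5 FPKM in OM naive, OM 24 h and OM 7 d and 10.3, 28.4 and 9.21 in the mesentery, with its mesenteric maximum at 24 h as for Cxcl13. For Ccr7 they were Qprt (0.29), Tnfrsf9 (0.30) and Socs2 (0.33), the last of which is on the dendritic cell list above. For Cxcl12 they were Ppl (0.17), F3 (0.21) and Gpx3 (0.22), and for Cxcr4 Zfp81 (0.06), Nif3l1 (0.06) and Kif18a (0.07). With Cxcr4 the small distances come from a profile that is nearly flat.

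Further lymphoid chemoattractants and receptors were described from a list of 12 genes, of which 8 were expressed. Between the naive libraries 1 was higher in the omentum, Ackr3, the scavenging receptor of CXCL12 (2.03, with 3.95 against 0.216 FPKM), and 0 were lower. In OM 24 h against OM naive, Ch25h rose by 2.47 and Ackr4 by 1.74. Ch25h makes the first step of the oxysterol ligand of GPR183, and Ackr4 scavenges CCL19 and CCL21. Over the same step S1pr1, the receptor for exit from lymphoid tissue, fell by 1.57 and Ccr6 by 1.38. At 7 d Ch25h (1.51) and Ackr4 (1.30) were still higher than in OM naive and 0 genes were lower. In the mesentery 0 of the 8 changed by 2-fold at 24 h or at 7 d against MY naive.

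Lymphotoxin receptor signalling was represented by 14 genes, all expressed. In OM naive, 4 of them were lower than in MY naive and 0 higher: Relb (-1.95), Birc2 (-1.61), Tnfsf14 (-1.20) and Map3k14 (-1.08). Relb and Map3k14 encode a subunit and the kinase of the alternative NF-kappaB pathway, and TNFSF14 (LIGHT) is a further ligand of LTBR. In OM 24 h, 3 rose against OM naive and 0 fell: Tnfrsf1a by 1.52, Ltbr by 1.33 and Tnf by 1.21. The receptor Ltbr measured 21.1, 54.7 and 34.6 FPKM in OM naive, OM 24 h and OM 7 d, opposite in order to its ligand subunit Ltb, so that Ltb over Ltbr went from 33.3 to 2.26 and 8.93. In the mesentery Ltbr measured 11.8 FPKM in naive mice, 24.0 at 24 h and 12.5 at 7 d, and Ltb over Ltbr was 56.2, 18.2 and 61.8. At 7 d in the omentum and at both times in the mesentery 0 of the 14 genes passed 2-fold against the naive library.

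Adhesion and stromal genes of lymphoid tissue formed the remaining lists. Of 8 adhesion genes, 3 were lower in OM naive than in MY naive and 0 higher: Glycam1 (-3.80), Vcam1 (-2.30) and Madcam1 (-1.06). Madcam1 was low in both, at 0.120 FPKM in OM naive and 1.34 in MY naive. Glycam1 and Madcam1 are carried by the vessels through which lymphocytes enter lymph nodes and gut lymphoid tissue. In the mesentery these genes rose at 24 h, Glycam1 by 1.78 (15.4 to 55.1 FPKM), Vcam1 by 1.47 and Madcam1 by 1.44, while in OM 24 h Vcam1 rose by 1.93 and the integrins Itgb7 and Itga4 fell by 1.52 and 1.13. At 7 d 0 adhesion genes passed 2-fold in the omentum, and Glycam1 was lower in MY 7 d than in MY naive, at 6.80 FPKM. Of 9 stromal and organiser genes, 4 were higher and 1 lower in OM naive: Enpp2 (2.91), Pdpn (1.62), Tnfsf13b (1.42) and Bst1 (1.20) against Tnfsf11 (-1.05). Enpp2 encodes autotaxin, Pdpn the podoplanin of lymphoid stroma and mesothelium, Tnfsf13b the B cell survival factor BAFF, and Tnfsf11 RANKL. In OM 24 h Pdpn (2.11), Bst1 (1.72) and Tnfrsf11a (1.63) rose and Cr2, the complement receptor of B cells and follicular dendritic cells, fell to 0.844 FPKM from 6.39. In OM 7 d Enpp2 (3.04), Pdpn (2.16) and Tnfsf11 (1.31) stood above OM naive and 0 genes below.

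**Figure D4:**
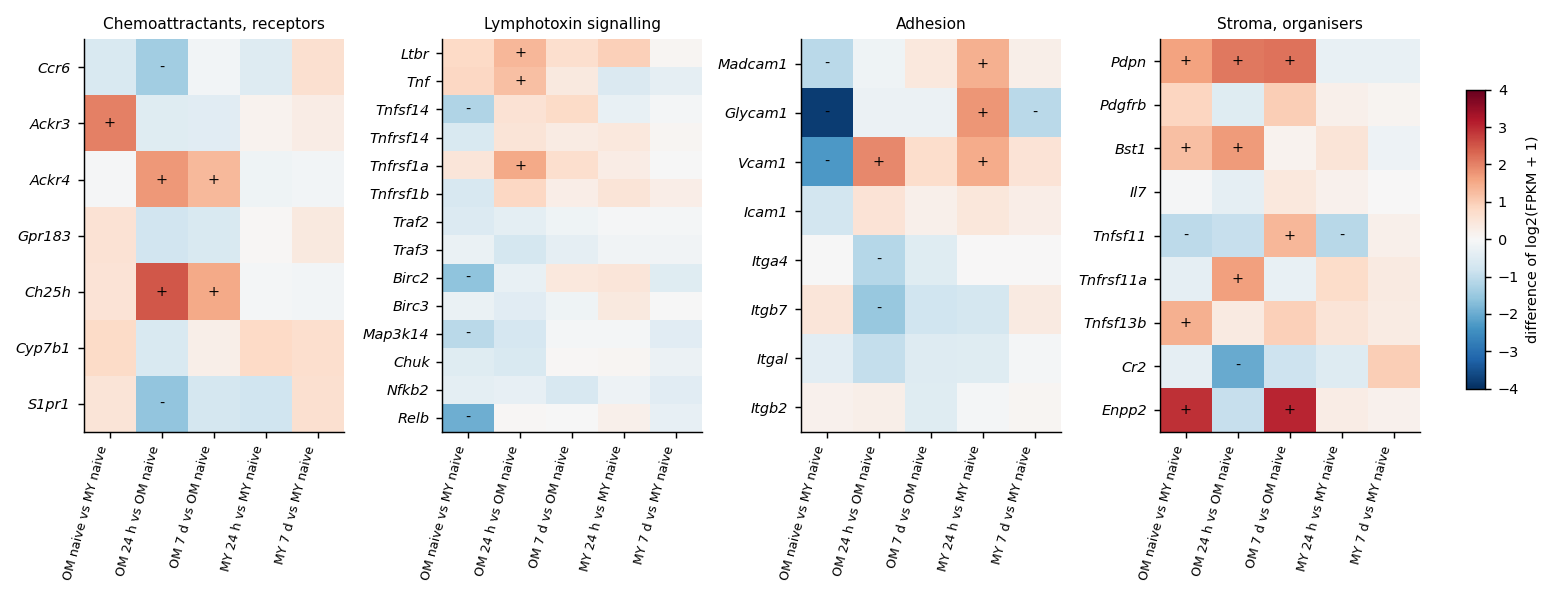
Difference of log2(FPKM + 1) (colour scale, red higher and blue lower in the first library named) for expressed genes of the 4 pathway lists in 5 comparisons of 2 libraries, with + and - marking at least 2-fold. Marks concentrate in the OM naive against MY naive and OM 24 h against OM naive columns, and Glycam1, Vcam1 and Madcam1 carry the 3 + marks of the adhesion list in MY 24 h.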

How the data were processed

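Female C57BL/6 mice gave 6 libraries, 1 per condition. The authors inspected paired reads of 75 bases using FastQC 0.11.4. Alignment was to the mouse build NCBI37/mm9, by STAR 2.4.2a guided by UCSC gene models, and Cufflinks gave the FPKM. The deposited table holds FPKM per gene symbol, with sums of 526887 to 713863 per library. FPKM carry no read counts, so the depth behind a value is unknown and no count test was run. Differences were computed with Python 3.11.15, numpy 2.4.6 and pandas 2.3.3 as log2(FPKM + 1), which understates changes of low genes. A gene counted as expressed with 1 FPKM or more in any library, and differences of at least 2-fold were counted. Figures were drawn with matplotlib 3.10.9. The members and gene lists were chosen with earlier results of these data known. Named are all members, for each the 3 genes of nearest profile, and up to 4 genes past 2-fold per pathway list and comparison. Other genes were named after their values were seen. Some listed genes entered the counts and sums but are not reported here by name. Alternatives were pseudocounts of 0.1 and 5, 2 rescalings, 2 filters and leaving out each time point. The scripts were checked on simulated data.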

Additional observations from a re-analysis of the deposited data

Results flagged for a closer look

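Some members had changes of opposite sign in the tissues after injection. None of these differences was tested, since each condition has 1 library. At 24 h, Ccr7 changed by -0.92 in the omentum and 0.53 in the mesentery on the log2 scale, a difference of -1.45. At 7 d, Cxcr5 changed by -0.59 and 1.10, a difference of -1.69, and Ltb by -1.18 and 0.21, a difference of -1.39. The opposite changes at 7 d of Cxcl13 (-0.20 and 0.02, a difference of -0.22) and Cxcr4 (0.10 and -0.04, a difference of 0.14) were each within 1.5-fold of no change. So were the mesenteric changes of Ccr7 at 24 h and of Ltb at 7 d, beside larger changes in the omentum. Cxcr5 at 7 d was past 1.5-fold in both tissues, in the omentum narrowly (1.51-fold).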

How the results depend on the processing

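No paired analysis was possible because no condition holds a second library for replicate numbers to pair. A test of tissue with the time points as pairs was not run. Of 252 recomputed differences of the members, 241 stayed within 1.5-fold and 11 moved further, all of Cxcl12 or Lta under another pseudocount. Among the 241, 6 small differences changed sign on rescaling. Rescaling to a sum of 1000000 moved the median of all genes most in OM 7 d against OM 24 h, to 0.36. Without the naive libraries, 2 members (Ccr7 and Ltb) were lower in every omental library, in place of 1. The 1 member (Cxcr5) past 2-fold in MY 7 d against MY naive became 0 with a pseudocount of 5.

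Of 154 recomputed counts, 130 stayed within 1.5 times and 24 did not, the 2 above included. The values in brackets are the reported counts of genes past 2-fold. With a pseudocount of 0.1, pathway genes numbered 10 in OM 7 d against OM naive (5), 8 in MY 24 h against MY naive (4) and 4 in MY 7 d against MY naive (1). With a pseudocount of 5 they numbered 5 in OM naive against MY naive (13), 2 in OM 7 d against OM naive (5), 3 in OM 7 d against OM 24 h (9), 2 in MY 24 h against MY naive (4) and 0 in MY 7 d against MY naive (1), and cell type genes 9 in MY 24 h against MY naive (15). On rescaling to a sum of 1000000, pathway genes numbered 15 in OM 7 d against OM 24 h (9) and 2 in MY 7 d against MY naive (1). Keeping genes with 1 FPKM in every library, which leaves fewer genes, gave 7 pathway genes in OM naive against MY naive (13), 14 at 24 h (22) and 10 at 7 d (18) between the tissues, 1 in OM 7 d against OM naive (5), 1 in MY 24 h against MY naive (4), 0 in MY 7 d against MY naive (1) and 3 in MY 7 d against MY 24 h (7). That filter gave 39 cell type genes in OM naive against MY naive (60), 30 in OM 7 d against MY 7 d (52), 13 in OM 7 d against OM naive (28) and 10 in MY 7 d against MY naive (16). The cause of the other shifts was not tested. FPKM hold no depth, so the error of low values is unknown.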
